A study of Mus musculus with 4 samples.

Results

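The 32 genes described here encode the enzymes that remove acetyl groups from histones and other proteins, the enzymes that add them, and the corepressors that carry deacetylases to chromatin. They were taken as every probe whose gene name in the scanner files was one of Hdac1 to Hdac11, Sirt1 to Sirt7, 6 acetyltransferases (Kat2a, Kat2b, Kat5, Hat1, Ep300 and Crebbp) or 8 corepressors (Sin3a, Sin3b, Rcor1, Rcor2, Ncor1, Mta1, Mta2 and Mta3). This gave 48 probes for 32 of the 36163 gene names on the array, and 14 of the genes had more than 1 probe. The study asked how blocking chromatin regulators affects the passage of mouse embryonic stem cells from the ground state to the primed state of pluripotency. All 4 groups were the E14Tg2A line of strain 129/Ola. The ES group was untreated and taken at day 0 of differentiation. The ELA group, untreated epiblast-like aggregates, was taken at day 2 in minimal medium without leukemia inhibitory factor. The AZA group was ELA formed with 50 nM 5-Azacytidine, an inhibitor of DNA methyltransferases. The CHQ group was ELA formed with 100 µM 5-Carboxy-8-hydroxyquinoline, an inhibitor of histone lysine demethylases. Each group was 1 single-colour array carrying pooled RNA of 3 experiments, so no difference below has a replicate check or a p-value, and the cells are those of a single line.

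Lysine acetylation weakens the hold of histone tails on DNA and is read by bromodomain proteins, and its removal accompanies gene silencing. Zinc-dependent deacetylases fall into class I (nuclear, the catalytic core of the SIN3, NuRD, CoREST and NCoR complexes), class IIa (weakly active, signal-responsive, acting mainly through NCoR and MEF2), class IIb (Hdac6 and Hdac10, largely cytoplasmic) and class IV (Hdac11), while sirtuins use NAD+. In embryonic stem cells, NuRD and the class I enzymes take part in shutting down the pluripotency programme, and Kat5 and Ep300 are part of the machinery that keeps it open.

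Between 55.1% and 69.2% of gene spots were well above background on an array, and no spot was saturated. Values are log2 intensities after normalisation across the arrays. The SD between copies of 432 probes spotted several times on an array was 0.124 to 0.174, which covers spots within an array only. The ES and ELA arrays were on slide 1 and the AZA and CHQ arrays on slide 2, with a median local background of 59 and 77 against 14 and 13. ELA minus ES and CHQ minus AZA were therefore differences within a slide, whereas in AZA minus ELA and CHQ minus ELA the treatment and the slide cannot be told apart. ELA minus ES, AZA minus ELA and CHQ minus ELA all share the ELA array, so a high or low reading there enters all 3, with opposite sign in the first. All 48 member probes were well above background on all 4 arrays.

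Marker genes were read as a check of the labels. The pluripotency factor Pou5f1 was at 14.95 in ES and 14.46 in ELA, against 14.05 under AZA and 13.56 under CHQ. Sox2, the other general marker, was at 13.43, 12.77, 13.76 and 13.41 in the same order. The 4 ground-state markers (Nanog, Zfp42, Klf4 and Esrrb) averaged 14.57 in ES and 11.52 in ELA, against 15.17 under AZA and 13.64 under CHQ, with Nanog at 12.53 in ELA and 12.54 under CHQ but 15.39 under AZA. The 4 primed-epiblast markers (Fgf5, Dnmt3b, Otx2 and Pou3f1) averaged 14.67, 16.0, 14.63 and 15.45 in the same order. Otx2 was instead highest under AZA, at 16.17 against 15.85 in ELA, and Pou3f1 under CHQ, at 15.48 against 15.19 in ELA. The neural list averaged 10.3, 10.73, 9.27 and 9.13, the trophoblast list 9.41, 9.2, 8.62 and 8.78, the fibroblast list 8.71, 8.85, 9.46 and 8.65, and the mesendoderm list 6.64, 7.21, 6.9 and 6.89. The 4 primitive-endoderm markers averaged 6.93, 7.29, 7.58 and 8.51, with Gata6 and Sox17 well above background only in the AZA and CHQ groups, Dab2 at 7.48, 8.25, 6.78 and 6.91, and Gata4 at 7.46, 7.45, 7.7 and 7.73. The part of these cell-state markers in the member differences was not tested, and in bulk RNA fewer cells of a type and less RNA per cell cannot be told apart.

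The first comparison, ELA against ES, follows the members through priming. Class IIa deacetylases were the group set highest in ELA, with Hdac9 at 3.42-fold and Hdac7 at 2.05-fold the ES level and Hdac5 just short of the threshold at 1.89-fold. Sirt4, a mitochondrial sirtuin, was 2.1-fold lower in ELA, a call that was lost with scaling to the 75th percentile (-0.95 on the log2 scale) and with the mean over its probes (-0.91). A gene was called when it differed by 2-fold or more (1 log2 unit), its mean over both arrays was at least 7.5 on the log2 scale and its signal stood well above background on 1 or both. By this rule 3 of the 32 members were called, 9.38%, against 10.0% of the 18896 genes tested. The members were 2 higher and 1 lower, and 4.46% of all genes were called higher and 5.59% lower. The median member difference was 0.03, and 22 of the 32 members differed by less than 0.5. The share of members called was thus near the background of all genes. Values are relative to the bulk of genes: scaling to the spike-in probes instead moved the median of all genes tested to -0.59 in ELA minus ES, -0.26 in AZA minus ELA, -0.39 in CHQ minus ELA and -0.18 in CHQ minus AZA. Small positive differences turn negative under that scaling, and of the called ones Hdac7 drops to 0.42 in ELA minus ES. The Hdac7 call was also lost with scaling to the 75th percentile (0.98) and the Hdac9 call on the authors' table, so none of the 3 held under all 9 alternatives.

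The second comparison, AZA against untreated ELA, gave higher levels of Sirt4 (5.97-fold), Sirt3 (2.74-fold), Kat2b (2.49-fold) and Sirt7 (2.13-fold). It gave lower levels of Hdac9 (4.37-fold), the NuRD subunit gene Mta1 (2.97-fold) and Hdac8 (2.01-fold). The 7 called members are 21.9% of 32, against 25.6% of the 19106 genes tested (14.2% higher and 11.4% lower). The median member difference was 0.07 (-0.06 under the spike-in scaling and -0.01 on the processed signal), against -0.07 for all genes tested. The calls of Sirt4, Sirt3, Kat2b and Mta1 held under all 9 alternatives, whereas Sirt7 (0.48) and Hdac8 (-0.61) were lost with the mean over probes, Sirt7 (0.98) also under the spike-in scaling, and Hdac9 on the authors' table and the scanner's processed signal. Of the 11 zinc-dependent deacetylases 10 were below 0, though Hdac4, Hdac7 and Hdac10 only by -0.04, -0.01 and -0.04, and of the 7 sirtuins 6 were above 0, against 45.7% of all genes tested above 0.

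The third comparison, CHQ against untreated ELA, gave higher levels of Sirt4 (8.19-fold), Kat2b (3.36-fold) and Sirt3 (3.11-fold), and lower levels of Hdac7 (3.18-fold) and the acetyltransferase gene Kat5 (2.01-fold). These 5 called members are 15.6% of the 32, against 26.6% of the 19113 genes tested (14.8% higher and 11.9% lower). The Kat5 call was lost on the authors' table (-0.99) and with the mean over probes (-0.97), and the others held under all 9 alternatives. The median member difference was 0.12, against -0.09 for all genes tested, and turned to -0.13 under the spike-in scaling and -0.04 with the mean over probes.

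The fourth comparison set CHQ directly against AZA on the same slide. A pair of class IIa genes stood apart here in opposite directions. Hdac9 was 5.52-fold higher with CHQ than with AZA, and Hdac7 was 3.17-fold lower. They were the only called members, 6.25% of 32, against 10.3% of the 19145 genes tested (5.53% higher and 4.81% lower). The Hdac7 call held under all 9 alternatives. The Hdac9 call was lost on the authors' table, although its difference ran from 2.47 to 3.67 on the log2 scale over the settings. Hdac8 was gained on the authors' table (1.12) and under other alternatives. Sirt4, Sirt3 and Kat2b differed between the treated groups by 0.46, 0.18 and 0.43 on the log2 scale, all under the threshold.

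**Figure D1:**
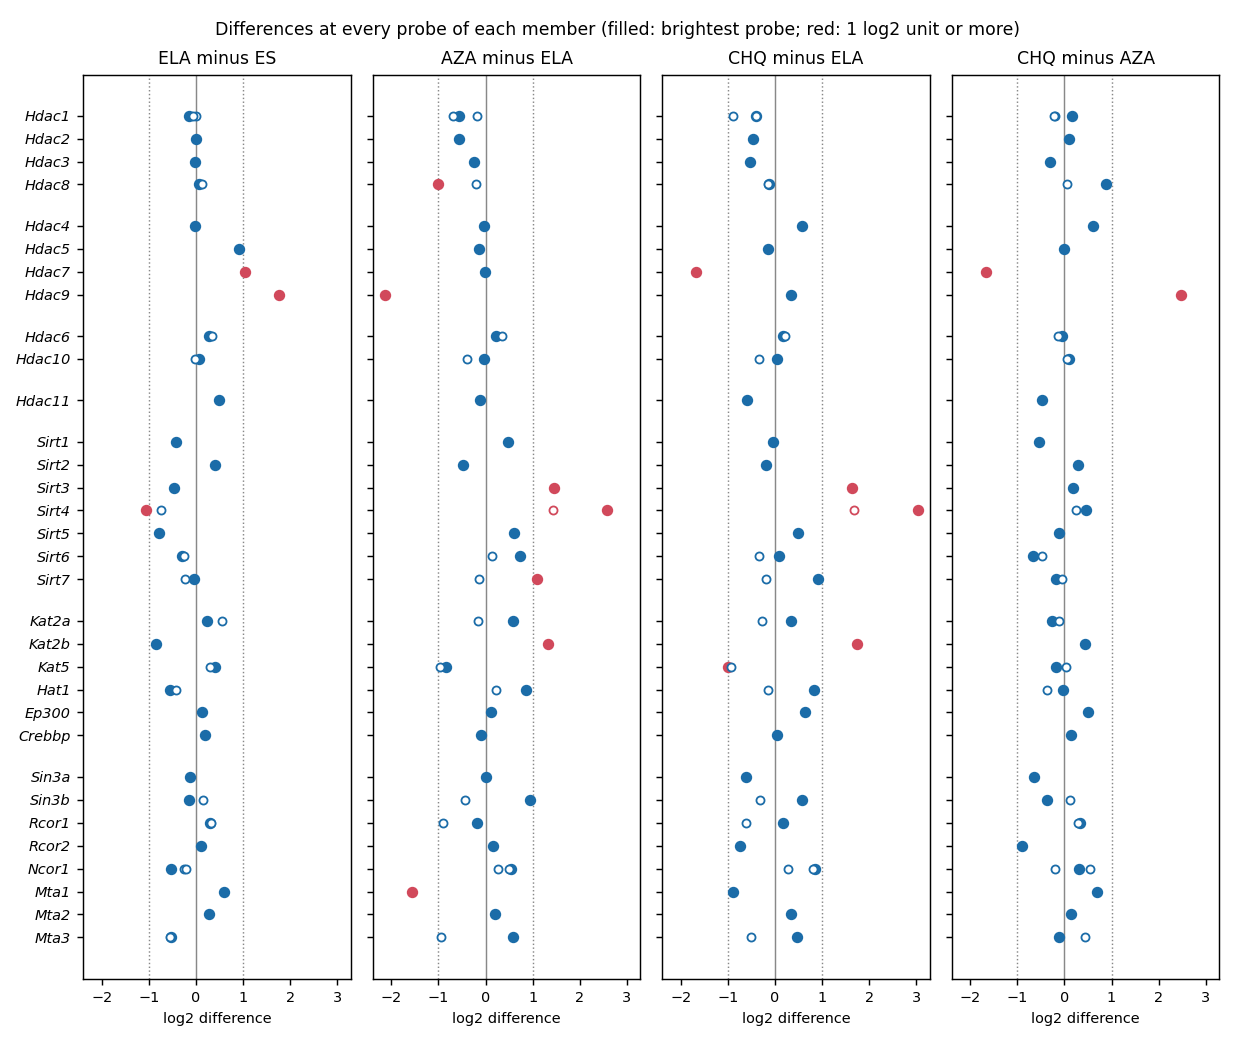
Log2 difference (x axis) of every member gene (rows, grouped by class) in the 4 comparisons (panels), with filled circles for the brightest probe of a gene, open circles for its other probes, and red for probes that met the 2-fold rule. Sirt4 lies farthest right in both comparisons with ELA, at 2.58 and 3.03, while Hdac9 and Hdac7 lie on opposite sides in CHQ minus AZA, at 2.47 and -1.66.

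Class I deacetylases hardly differed between ES and ELA, with differences of -0.16 to 0.07 for the 4 genes. All 4 were lower in both treated groups than in ELA, with a median difference of -0.57 for AZA and -0.44 for CHQ, though Hdac8 with CHQ only by -0.12. Of all genes tested 45.7% were above 0 in either comparison, with medians of -0.07 and -0.09. Both comparisons are across slides. Hdac1, the main nuclear deacetylase of embryonic stem cells, was at 16.41 in ES and 16.25 in ELA, against 15.69 under AZA and 15.85 under CHQ. Its brightest probe therefore read lower on both treated arrays than on both untreated ones, and its 2 other probes did so too, with differences from ELA of -0.70 and -0.18 for AZA and -0.90 and -0.40 for CHQ. Hdac2, the close relative of Hdac1, had 10 copies of its probe on each array. It read 9.47 ± 0.0733 in ES and 9.46 ± 0.067 in ELA, against 8.89 ± 0.0301 under AZA and 8.99 ± 0.0996 under CHQ (SD over the 10 spots of 1 array). The difference between treated and untreated arrays was several times this spot SD, which does not cover the spread between cultures or slides. Hdac3, the catalytic subunit of the NCoR complex, was at -0.24 (AZA) and -0.54 (CHQ) relative to ELA.

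Hdac8, the class I enzyme that deacetylates the cohesin subunit SMC3, was the only called member of its class. It read 8.82 in ES and 8.90 in ELA, against 7.89 under AZA and 8.78 under CHQ, so the AZA array alone was low. Its other probe read 7.75, 7.88, 7.67 and 7.73 and gave AZA minus ELA as -0.21, so the call rests on 1 probe. The brighter probe is given by the files as chrX:99503070-99597969 on the minus strand of mm9, a span wider than the 60 bases of a probe, and the other as chrX:99700320-99700379. The first 30 bases of both are shown because they read the same gene at different places.
Hdac8 brighter probe: ggtcatcctagggaaaacgctatcctctga
Hdac8 other probe: aacagtgggcattcactacccccggtttat

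Class IIa deacetylases held both members that were called between the treatments. Hdac9, a repressor of MEF2 targets, read 7.31 in ES and 9.09 in ELA, against 6.96 under AZA and 9.42 under CHQ. The 4 values thus split into a low pair, ES and AZA, and a high pair, ELA and CHQ, and each slide held a member of both pairs. The differences within a slide were 1.77 for ELA minus ES and 2.47 for CHQ minus AZA. The low pair was dim: the lowest probes well above background read 6.33 in ES and 6.17 with AZA. Over the settings the Hdac9 difference ran from 1.2 to 2.42 in ELA minus ES. It ran from -3.19 to -2.13 in AZA minus ELA and from 2.47 to 3.67 in CHQ minus AZA. Hdac7, another class IIa member, read 11.30 in ES and 12.33 in ELA, against 12.33 under AZA and 10.66 under CHQ. Here CHQ was the low group, with a difference of -1.66 from AZA on the same slide and -0.64 from ES, and AZA was level with ELA (-0.01). Both genes were read by 1 probe each. The probe of Hdac9 lies at chr12:35056405-35056464 and that of Hdac7 at chr15:97623208-97623267, both on the minus strand of mm9. Their first 30 bases are shown because the sharpest contrast between the treatments among the members rests on these probes.
Hdac9 probe: ggtgatctcttgttttgtgttgtaaatata
Hdac7 probe: ccaagaaagagtatttgtgtgtatgtgtgt

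Hdac5, which shuttles between nucleus and cytoplasm like the other class IIa enzymes, read 13.22 in ES, 14.14 in ELA and 13.99 under CHQ. ELA was the highest array, and both treated groups lay at -0.14 relative to it. Hdac4 was flat between ES and ELA (-0.02) and with AZA (-0.04) and was 0.57 above ELA with CHQ. The class median was 0.98 in ELA minus ES, against -0.02 for all genes tested. With AZA the class median was -0.09, near the -0.07 of all genes tested, of which 45.7% were above 0. All 4 were below 0 there, Hdac7 and Hdac4 only by -0.01 and -0.04. With CHQ the class median was 0.1, where Hdac7 and Hdac5 were below 0 and Hdac4 and Hdac9 above. That CHQ median turned to -0.03 with scaling to the 75th percentile and -0.2 under the spike-in scaling.

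Class IIb and class IV genes stayed under the threshold in all 4 comparisons. Hdac10, a polyamine deacetylase, read 10.74, 10.81, 10.76 and 10.85 in ES, ELA, AZA and CHQ, a range of 0.11 that was the narrowest among the members. Hdac6, the tubulin deacetylase, read 14.14, 14.42, 14.65 and 14.60, lowest in ES, whereas under the spike-in scaling ELA minus ES was -0.42 and ES became the highest array. Hdac11, the sole class IV gene, read 7.51, 7.98, 7.88 and 7.40, with CHQ minus ELA at -0.59.

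**Figure D2:**
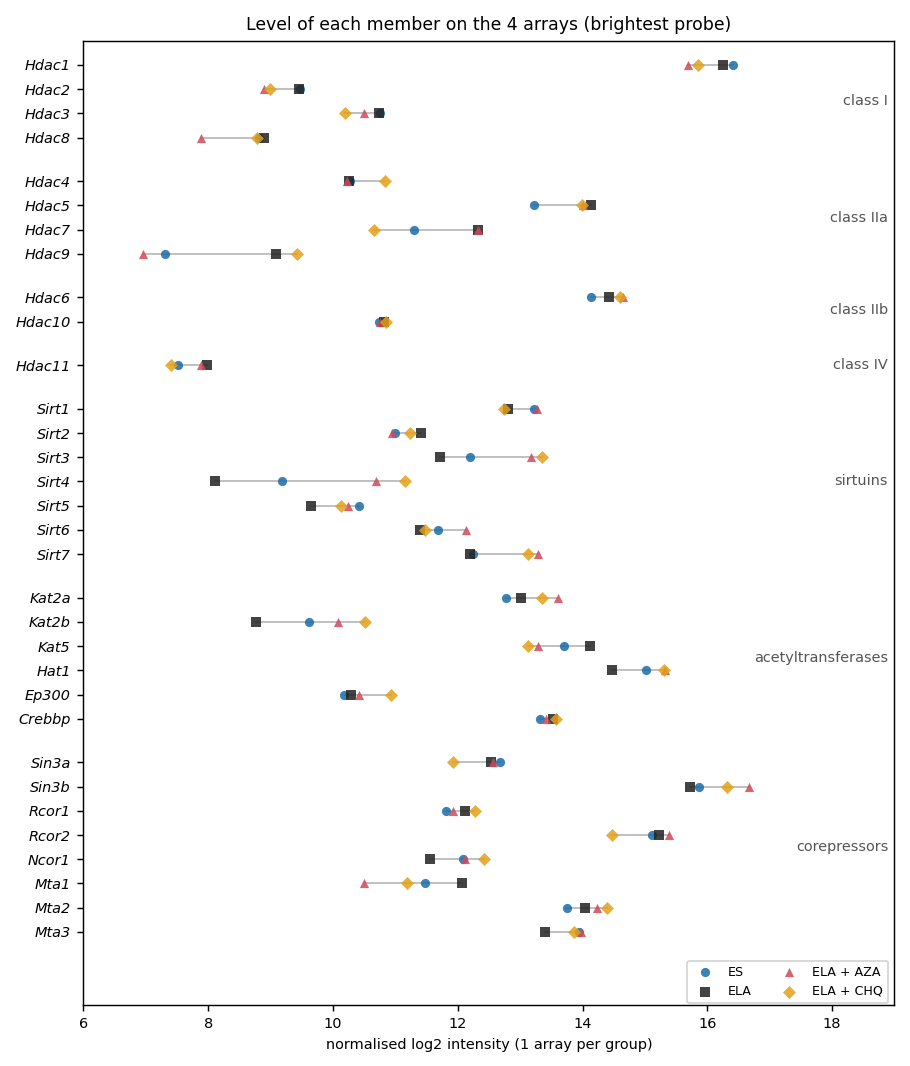
Normalised log2 intensity (x axis) of the brightest probe of each member (rows, grouped by class) on the 4 arrays (symbols), with a grey line from the lowest to the highest array of a gene. Positions of different genes are readings of different probes and set no order of abundance, while within a row the spread runs from 0.11 for Hdac10 to that of Sirt4, 8.11 in ELA to 11.15 with CHQ.

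Of the 7 sirtuins, 1 was called in ELA minus ES (14.3%), 3 with AZA (42.9%) and 2 with CHQ (28.6%). Of all genes tested 10.0%, 25.6% and 26.6% were called in these comparisons, which all rest on the same ELA array. Under the spike-in scaling 4 sirtuins were called lower in ELA minus ES, where 20.5% of all genes were called. With AZA the count fell to 2, without Sirt7, under the spike-in scaling (27.7% of all genes called) and with the mean over probes (24.2%). In ELA minus ES 6 of 7 were below 0, with a median of -0.43, while 47.9% of all genes tested were above 0. With AZA 6 of 7 were above ELA, with a median of 0.74, and with CHQ 5 of 7, with a median of 0.49, while 45.7% of all genes tested were above 0 in either comparison. The count with CHQ was 4 of 7 under the spike-in scaling and with the mean over probes, where Sirt6 was at -0.07 and -0.13. The exception in direction was Sirt2, the tubulin-directed cytoplasmic sirtuin, at 0.40 in ELA minus ES (-0.2 under the spike-in scaling), -0.47 with AZA and -0.18 with CHQ. With CHQ the other gene below ELA was Sirt1, the nuclear sirtuin that deacetylates p53, at -0.05.

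The 3 mitochondrial sirtuins were all lower in ELA than in ES, by differences of -0.47 (Sirt3), -1.07 (Sirt4) and -0.78 (Sirt5). Sirt4, a lipoamidase and ADP-ribosyltransferase that restrains glutamine use, read 9.18 in ES and 8.11 in ELA, against 10.69 under AZA and 11.15 under CHQ. The treated arrays were both above ES as well as ELA, by 1.51 and 1.97 relative to ES. Its other probe ran the same way at 7.91, 7.16, 8.59 and 8.83, with smaller differences from ELA of 1.43 for AZA and 1.67 for CHQ. Sirt3, the main mitochondrial deacetylase, read 12.19 in ES and 11.72 in ELA, against 13.18 under AZA and 13.35 under CHQ, so its treated arrays also read above ES, by 0.98 and 1.16, or 0.21 and 0.21 under the spike-in scaling. These differences from ES are across slides, as for Sirt4, where the spike-in scaling gave 0.89 and 1.25. Sirt5, a desuccinylase, read 10.42, 9.64, 10.24 and 10.13, with both treated arrays between ELA and ES. The Sirt4 probes lie at chr5:115928163-115928222 and chr5:115929657-115929716 and the Sirt3 probe at chr7:148049581-148049640, all on the minus strand of mm9, and their starts are shown because the Sirt4 differences from ELA were the largest among the members and Sirt3 was called in the same 2 comparisons.
Sirt4 brighter probe: cagaagtcagtaaaccacaactgtctatga
Sirt4 other probe: ctggattcccgctgtggagagttgctgcct
Sirt3 probe: gcatgttgatcggtaaagtggcatctttaa

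Among the nuclear sirtuins, Sirt7, which deacetylates histone H3 at lysine 18, read 12.25 in ES and 12.20 in ELA, against 13.29 under AZA and 13.12 under CHQ. Its other probe read 9.06, 8.83, 8.70 and 8.65, slightly below ELA in both treated groups (-0.14 and -0.19), so the call with AZA was not shared by the gene's 2 probes. The brighter probe lies at chr11:120479736-120479795 and the other at chr11:120485809-120485868, both on the minus strand of mm9. Their starts are shown because they disagree.
Sirt7 brighter probe: gtacaagtgttcactttatagaagcctttt
Sirt7 other probe: aactggccggagctgtccgaagtgccaggc
Sirt6, a telomeric and glucose-regulating deacetylase, was 0.74 above ELA with AZA and 0.08 with CHQ, and its other probe gave 0.13 and -0.34. Sirt1 read 13.22 in ES and 12.80 in ELA, against 13.27 under AZA and 12.74 under CHQ.

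**Figure D3:**
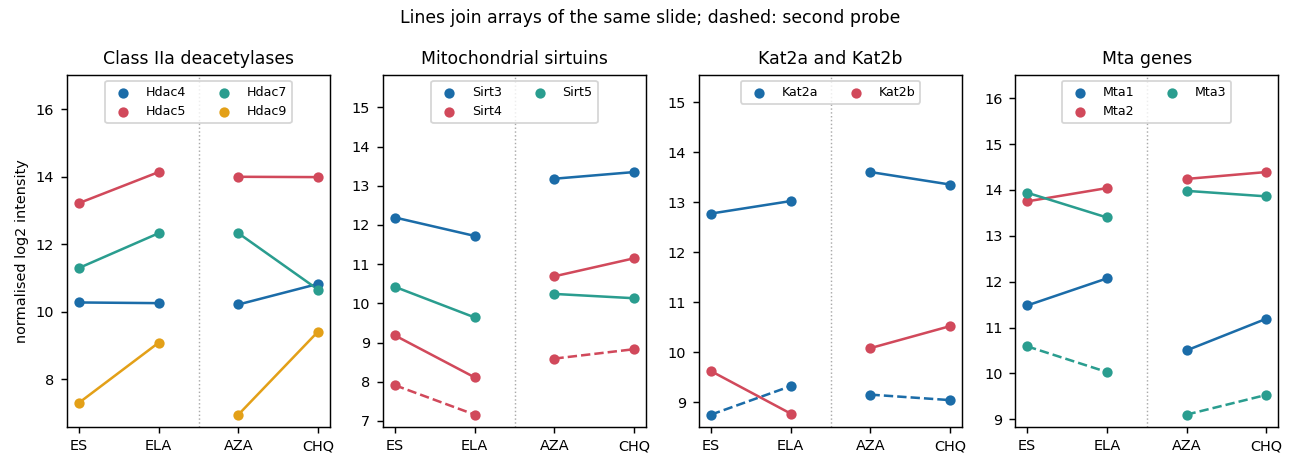
Normalised log2 intensity (y axis) of class IIa deacetylases, mitochondrial sirtuins, Kat2a with Kat2b, and the Mta genes on the 4 arrays (x axis), with lines joining the arrays of a slide and dashed lines for a second probe. Hdac9 is high in ELA and CHQ (9.09 and 9.42) and low in ES and AZA, whereas both Sirt4 probes are lowest in ELA.

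None of the 6 acetyltransferases was called between ES and ELA, against 10.0% of all genes tested. The differences ran from -0.85 (Kat2b) to 0.41 (Kat5), with a median of 0.16. Under the spike-in scaling the median turned to -0.47 and Kat5 to -0.28. Kat2b and Hat1 were called lower under that scaling, with 20.5% of all genes called. Kat2b (PCAF), one of the paired catalytic subunits of the SAGA-type complexes, had the widest range of the class. It read 9.62 in ES and 8.77 in ELA, against 10.08 under AZA and 10.52 under CHQ, lowest in ELA and highest with CHQ. Kat2a (GCN5), its paralogue, read 12.77, 13.02, 13.60 and 13.35 and was 0.59 (AZA) and 0.33 (CHQ) above ELA. The other Kat2a probe put both treated groups below ELA instead, at -0.16 and -0.27, so no direction is given for Kat2a. The Kat2b probe, the sole one for the gene, lies at chr17:53811093-53811152 on the plus strand of mm9.
Kat2b probe: caccagtgtctatgtgaacatttcccattt

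Kat5 (TIP60), the catalytic subunit of a complex that acetylates H2A and H4, read 13.71 in ES and 14.12 in ELA, against 13.29 under AZA and 13.12 under CHQ. Its 2 probes ran together, with differences from ELA of -0.83 and -0.96 for AZA and -1.0 and -0.93 for CHQ, on either side of the threshold. Hat1, which acetylates newly made histone H4, read 15.02, 14.47, 15.33 and 15.30, lowest in ELA. Its brighter probe gave CHQ minus ELA as 0.83 and its other probe as -0.15. The coactivators Ep300 and Crebbp (p300 and CBP) stayed under the threshold throughout. Ep300 was 0.63 above ELA with CHQ, and Crebbp read 13.32, 13.52, 13.42 and 13.57, a range of 0.25.

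Corepressor genes gave 1 call over the 4 comparisons, Mta1 with AZA, where it is 12.5% of the 8 genes. Of all genes tested 10.0%, 25.6%, 26.6% and 10.3% were called in the order of the comparisons. Under the spike-in scaling 2 were called lower in ELA minus ES (Ncor1 and Mta3, with 20.5% of all genes called). That scaling also called 1 lower with AZA, 2 lower in CHQ minus ELA (33.8% of all genes) and 1 lower in CHQ minus AZA (10.6%). Besides the call with AZA, scaling to the 75th percentile called 1 lower in CHQ minus ELA (29.4%) and 1 lower in CHQ minus AZA (10.3%). The processed signal likewise called 1 lower in CHQ minus ELA (32.7%). Mta1, a NuRD subunit that recruits Hdac1 and Hdac2, read 11.48 in ES and 12.07 in ELA, against 10.50 under AZA and 11.19 under CHQ. AZA was the lowest array, at -1.57 relative to ELA and -0.98 relative to ES. Mta2 read 13.75, 14.04, 14.24 and 14.39, with no difference over 1 log2 unit. Under the spike-in scaling ELA minus ES was -0.42 and ES became the highest array. Mta3 read 13.94, 13.40, 13.98 and 13.86 at its brighter probe, whereas its other probe read 10.59, 10.03, 9.1 and 9.53. The 2 Mta3 probes gave AZA minus ELA as 0.58 and -0.94, so the direction with AZA depends on the probe. The Mta1 probe lies at chr12:114374583-114374642 and the Mta3 probes at chr17:84192044-84192103 and chr17:84113968-84114027, all on the plus strand of mm9.
Mta1 probe: ggcgaatgaactggatcgacgccccagatg
Mta3 brighter probe: ctgcggcaggcagcgagacggccgtttgtt
Mta3 other probe: tgtggaagcaaaagtcgtctgcttttacag

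Neither SIN3 scaffold was called, and the 2 Sin3b probes differed in sign with either treatment. Sin3a, the form required for early embryonic cells, had an ELA minus ES difference of -0.12 and a CHQ minus ELA difference of -0.62. Sin3b read 15.87 in ES and 15.73 in ELA, against 16.67 under AZA and 16.31 under CHQ, but its other probe was below ELA in both treated groups, at -0.44 and -0.32. Among the CoREST scaffolds, Rcor2 read 15.12, 15.23, 15.38 and 14.48, with CHQ minus AZA, on the same slide, at -0.90, and Rcor1 read 11.81, 12.11, 11.93 and 12.27. Ncor1, the nuclear receptor corepressor, read 12.09 in ES and 11.56 in ELA, against 12.11 under AZA and 12.42 under CHQ, lowest in ELA. All 3 of its probes had the same sign in ELA minus ES (-0.53, -0.25 and -0.22), with AZA (0.55, 0.27 and 0.49) and with CHQ (0.86, 0.81 and 0.28).

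The size of the disagreement between probes of a gene depended on the comparison. Over the 16 additional probes of the 14 genes with several, none differed from the brightest probe by 1 log2 unit or more in ELA minus ES or in CHQ minus AZA, the comparisons within a slide. In AZA minus ELA 4 of 16 did and in CHQ minus ELA 2 of 16. The shift ran one way, since 13 of 16 additional probes gave a lower value than the brightest probe in each of these, with median shifts of -0.48 and -0.54. Over 7432 additional probes of all genes, 2.88% and 3.35% differed that much within a slide and 15.7% and 16.2% across slides, and the one-way shift was smaller, with 58.5% and 60.9% of them below the brightest probe and median shifts of -0.12 and -0.15. In the comparisons with ELA the median shift between probes of a member was thus larger than the spot SD. The cause was not tested, and slide and treatment cannot be told apart there.

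Over the 4 arrays, 4 of the 32 members (Hdac10, Crebbp, Rcor1 and Sirt2) stayed within a range of 0.5, which is 12.5%, against 22.7% of the 18625 genes well above background on all arrays with a mean of at least 7.5. The median range was 0.77 for the members, below the 0.84 of those genes. Ranges were read at the brightest probe. The other probe of Rcor1 read 7.57, 7.89, 6.98 and 7.26 and that of Hdac10 10.39, 10.37, 9.97 and 10.03 in ES, ELA, AZA and CHQ, lowest with AZA in both cases.

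A further 61 genes were read at the same rule, 49 of them other subunits of complexes that hold deacetylases or acetyltransferases and 12 of them other acetyltransferases and coactivators. In ELA minus ES 3 were called, all lower: the acetyltransferase gene Kat6b (listed as Myst4) at -1.52, the NuRD methyl-CpG-binding subunit Mbd2 at -1.19 and the coactivator Ncoa3 at -1.04. With AZA 5 were higher and 3 lower, 13.1% in all. The largest were the coactivator Ncoa1 at 1.89, the NuRD helicase Chd5 at 1.72 and Mbd2 at 1.4 on the higher side, and the SAGA subunit Tada1 at -1.66, the TIP60 subunit Yeats4 at -1.52 and the SIN3 subunit Brms1 at -1.07 on the lower side. With CHQ 8 were higher and 4 lower, 19.7%, with Ncoa1 at 3.02, Mbd2 at 2.52 and Chd5 at 2.12 against Yeats4 at -1.46, Tada1 at -1.28 and Ing2 at -1.11. All 3 probes of Ncoa1 were above ELA in both groups, by 1.89, 2.10 and 2.67 with AZA and 3.02, 3.29 and 3.68 with CHQ. The other probe of Mbd2 had the same signs but was smaller, at -0.53 in ELA minus ES, 0.24 with AZA and 1.3 with CHQ, and with the mean over probes the Mbd2 calls in ELA minus ES and with AZA were lost. In CHQ minus AZA 4 were higher and none lower, the first 3 being the CoREST subunit Phf21a (1.48), Ncoa2 (1.44) and Ncoa1 (1.13). These shares of 61 genes (4.92%, 13.1%, 19.7% and 6.56%) were below the background of all genes in each comparison. Under the spike-in scaling 0 partners were called higher and 10 lower in ELA minus ES, so there only the count moved. The balance of higher and lower partner calls with either treatment depended on the processing. It was 4 higher and 6 lower with AZA and 5 and 12 with CHQ under the spike-in scaling. With the mean over probes it was 3 and 5 with AZA and 5 and 6 with CHQ.

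AZA acts on DNA methylation, so the CG dinucleotides upstream of the members were counted. The RefSeq promoter table (GRCm38.p6) held 28 of the 32 members, and the 250 bases before each start were used. The motif searched was CG, which reads the same on both strands. The median member had 19.5 CG in its richest window, against 6.0 over 27018 genes, and 25 members (89.3%) had 10 or more, against 40.2% of all genes. Those 27018 genes were taken whatever their signal on the arrays, whereas every member was well above background. Whether the members differ in CG content from other detected genes was not tested. The 3 members under 10 were Hdac9, Kat2b and Hdac8, and all 3 were called in AZA minus ELA, Hdac9 and Hdac8 lower and Kat2b higher, against 4 of the 25 others and 25.6% of all genes tested, which were not split by CG content. In each of the other comparisons 1 of these 3 was called. Of the 25 others, 2 were called in ELA minus ES, 4 in CHQ minus ELA and 1 in CHQ minus AZA, against 10.0%, 26.6% and 10.3% of all genes tested. The Hdac8 call rests on 1 of its 2 probes, and the Hdac9 call was lost on the authors' table and on the scanner's processed signal, where it fell under the level minimum. This contrast was noted after the values were seen, rests on 3 genes that moved in both directions, and no methylation was measured here.

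**Figure D4:**
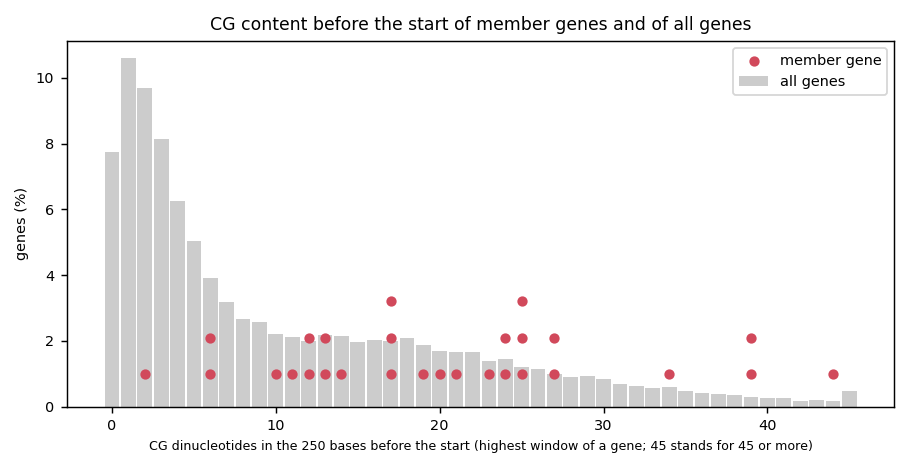
Number of CG dinucleotides in the richest 250-base window before a start (x axis) for all genes (grey bars, percent of genes) and for 28 member genes (red points, stacked where equal, with no y value of their own). The member median is 19.5 against 6.0 for all genes, which were not limited to those detected on the arrays. Hdac9 with 2 is the leftmost point.

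The upstream windows of Hdac9, Sirt4 and Mta1 are shown because these genes, apart in CG content, were the 3 with the largest AZA minus ELA differences in absolute size. The Hdac9 windows are chr12:34528890-34529139 and chr12:34917096-34917345, with 2 and 0 CG, and 81.2% and 100.0% of all windows held at least as many. The Sirt4 window is chr5:115484298-115484547, with 14 CG (29.4% of windows held at least as many). These 3 are on the minus strand of GRCm38.p6. The Mta1 window is chr12:113098028-113098277 on the plus strand, with 39 CG (1.57%). Each reads 5′ to 3′ and ends at the base before the start, with CG in capitals.
Hdac9 upstream window, start 1: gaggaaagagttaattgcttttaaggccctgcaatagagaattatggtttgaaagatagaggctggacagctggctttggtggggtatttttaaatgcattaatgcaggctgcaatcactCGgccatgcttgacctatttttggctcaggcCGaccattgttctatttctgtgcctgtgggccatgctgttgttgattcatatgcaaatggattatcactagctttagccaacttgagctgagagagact
Hdac9 upstream window, start 2: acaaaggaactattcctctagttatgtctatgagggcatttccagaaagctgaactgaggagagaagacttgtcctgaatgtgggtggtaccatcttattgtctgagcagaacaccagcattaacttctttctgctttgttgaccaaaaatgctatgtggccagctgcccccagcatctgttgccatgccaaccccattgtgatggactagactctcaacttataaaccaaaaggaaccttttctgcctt
Sirt4 upstream window: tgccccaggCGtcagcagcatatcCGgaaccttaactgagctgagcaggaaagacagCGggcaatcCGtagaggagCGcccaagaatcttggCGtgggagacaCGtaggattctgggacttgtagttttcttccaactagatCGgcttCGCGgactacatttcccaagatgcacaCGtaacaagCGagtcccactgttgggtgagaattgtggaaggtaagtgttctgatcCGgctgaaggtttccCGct
Mta1 upstream window: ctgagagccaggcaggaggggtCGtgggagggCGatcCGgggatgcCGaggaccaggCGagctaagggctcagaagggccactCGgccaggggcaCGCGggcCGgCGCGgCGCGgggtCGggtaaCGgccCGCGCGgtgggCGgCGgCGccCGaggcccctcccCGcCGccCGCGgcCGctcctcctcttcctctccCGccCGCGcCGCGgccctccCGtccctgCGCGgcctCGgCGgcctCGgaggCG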

How the data were processed

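The authors hybridised Cy3-labelled RNA of E14Tg2A cells, pooled from 3 experiments per group, to Agilent mouse arrays. The deposited scanner files hold spot intensity and local background intensity, read with Feature Extraction 10.7.3.1 per the file headers (9.1 in the submitters' notes). The deposited log2 table, background-corrected and quantile-normalised by the authors with limma, served as an alternative. Its median was 6.2 to 6.24 per array, and its values correlated at 0.9991 to 0.9994 with normexp without an offset.

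Intensities were corrected by normexp (offset 50) and quantile-normalised over the 4 arrays (limma 3.58.1, R 4.3.3), outlier spots (188 to 523 per array) and control spots were then dropped, and spots of a probe averaged. A gene was read at its brightest probe. Members and lists were chosen with earlier results of these data known. All 32 members were named, values on 4 arrays were given for called members and for the highest and lowest of each class, and up to 3 partners each way per comparison. A few further members were given on 4 arrays after their values were seen. For 47 of 48 probes the accession was in RefSeq, under the same symbol. Coordinates are those of the files (mm9), and exon or UTR position was not determined. The 7 spike-in probes set 1 alternative scaling. An array with a SmarcA4 knockdown was not analysed here.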

Additional observations from a re-analysis of the deposited data

How the results depend on the processing

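Calls and list medians were recomputed under 9 alternatives. Under all of them Sirt4, Sirt3, Kat2b and Mta1 stayed called in AZA minus ELA, Sirt4, Sirt3, Kat2b and Hdac7 in CHQ minus ELA, and Hdac7 in CHQ minus AZA, while no member did so in ELA minus ES. No called difference changed sign. The number of members called in ELA minus ES was 1 with scaling to the 75th percentile and 9 with scaling to the spike-in probes (1 higher and 8 lower, with 20.5% of all genes called), and that scaling called 8 in CHQ minus ELA (3 higher and 5 lower, with Hdac1, Rcor2 and Mta1 added and 33.8% of all genes called) and 3 higher and 4 lower in AZA minus ELA, where Sirt7 was lost, Kat5 gained and 27.7% of all genes called. It moved the median of all genes tested to -0.59, -0.26, -0.39 and -0.18 in the order of the comparisons, and the member medians to -0.57 in ELA minus ES, -0.06 in AZA minus ELA, -0.13 in CHQ minus ELA and -0.18 in CHQ minus AZA. Member changes are thus relative to the bulk of genes. The medians of the sirtuins in all 4 comparisons, of class I with either treatment and of class IIa in ELA minus ES kept their sign under every alternative. Hdac9 was not called on the authors' table, where its mean fell under the level minimum although its differences were 2.42, -2.89 and 3.19 in ELA minus ES, AZA minus ELA and CHQ minus AZA. Hdac7 in ELA minus ES was 0.42 with the spike-in scaling, and Sirt4 was -0.91 with the mean over probes, which also gave -0.61 for Hdac8 and 0.48 for Sirt7 in AZA minus ELA. Kat5 in CHQ minus ELA was lost on the authors' table and with the mean over probes, and Hdac8 in CHQ minus AZA was gained under 3 alternatives. The causes were not tested. With the mean over probes the member median in CHQ minus ELA was -0.04. A fit with slide as a block was not run, with 1 array per group. No paired analysis was possible because each group had 1 array. Over the single members, 764 values moved by less than the spot SD of a difference between 2 arrays and 132 by more. Single-member differences were not recomputed under the alternatives that changed only the background filter, so these counts leave those out.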
